A study of Mus musculus with 12 samples.

Results

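Keratins are the intermediate filament proteins of epithelial cells, and all rows of the expression table whose symbol is Krt, a number and at most 1 letter were taken as keratin genes, which leaves out the Krtap genes of keratin-associated proteins. The rule found 33 of 21792 rows. A fixed classification put 6 of them among the simple epithelial keratins, 10 among the stratified (squamous) keratins, 4 among the stress keratins, 2 among those of the hair follicle root sheath and 10 among those of hair and nail, and Krt222 stayed unclassed. By position in GENCODE M21 (GRCm38, the mm10 build that the labels name), 19 lie on chromosome 11 and 14 on chromosome 15. The annotation holds 54 keratin symbols, and the other 21 were not analysed here. In the test of all genes 32 of the 33 passed the filter on low values (mean of at least 1); Krt31, a hair keratin, did not.

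A keratin filament is built from a type I (acidic) and a type II (basic) keratin in equal amounts, so members are commonly described as partners. Krt8 with Krt18, Krt19 and Krt20 makes the filaments of the intestinal lining. Krt5 with Krt14 marks the basal layer of stratified epithelia, Krt4 with Krt13 the upper layers of moist, non-cornified ones, and Krt6a, Krt6b, Krt16 and Krt17 are induced in wounded or hyperproliferating skin. Hair and nail keratins are best known from hard, cornified structures.

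The samples were colon tumours of FvB mice given azoxymethane, a carcinogen, by intraperitoneal injection of 10 mg/kg once a week for 6 weeks, with the end of the experiment at week 16 after the first injection. All 4 genotypes had this treatment. They were wt, miR-34a deficient, p53 deficient and miR-34a/p53 deficient (double deficient), each deletion being described as one in intestinal epithelial cells, with 3 libraries per genotype. The labels give neither the Cre line nor the age or sex of the mice, and leave unsaid whether each replicate is its own animal, so that the p-values reflect only how far these samples spread. Total RNA of tumour tissue was sequenced, so that fewer cells of a type and less RNA per cell cannot be told apart.

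The values are normalized expression values rounded to whole numbers, not read counts, and the depth of each library is unknown. Trp53 had values of 401 to 924 in the 6 libraries labelled as p53 or double deficient and of 3466 to 5120 in the other 6, and Mir34a was not analysed here. Epithelial identity was clear in all libraries, with Epcam at 60419 to 144005 and Vil1 (villin) at 16701 to 29871. Some libraries stood apart on other measures. The posterior patterning gene Hoxd13 was at 1203 in p53 deficient 2 and at 39309 to 2284756 in the other 11. RNA of 4 genes on the Y chromosome averaged 0 on the log2 scale in wt 1 and in miR-34a deficient 1, stayed at 0.25 to 0.79 in double deficient libraries and was at 2.77 to 6.98 in the other 7. The libraries miR-34a deficient 1 and p53 deficient 1 carry another run code in their names than the other 10. Of 16 squamous markers other than keratins, 8 had their highest value in miR-34a deficient 3, and their mean log2 level was 10.23 there against 7.44 to 8.83 in the other 11.

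Simple keratins made up most of the keratin RNA in 10 of the 12 libraries. To compare levels between genes, each value was divided by the length of the gene's annotated coding transcript in kb; whether the deposited values were already scaled by length is not given in the sources used here. On this scale Krt8 had the highest median (105600 per kb), followed by its type I partners Krt18 (57690) and Krt19 (54270). The next were the stress keratin Krt6a (22560), the hair keratin Krt36 (18910) and the simple keratin Krt7 (17790). The ranges of Krt18 and Krt19 overlapped, at 33490 to 92740 and 41950 to 102700 per kb, and so did those of Krt6a, Krt36 and Krt7. The place of Krt7 is uncertain, since its annotated transcript of 4094 bases is long for a keratin.

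**Figure D1:**
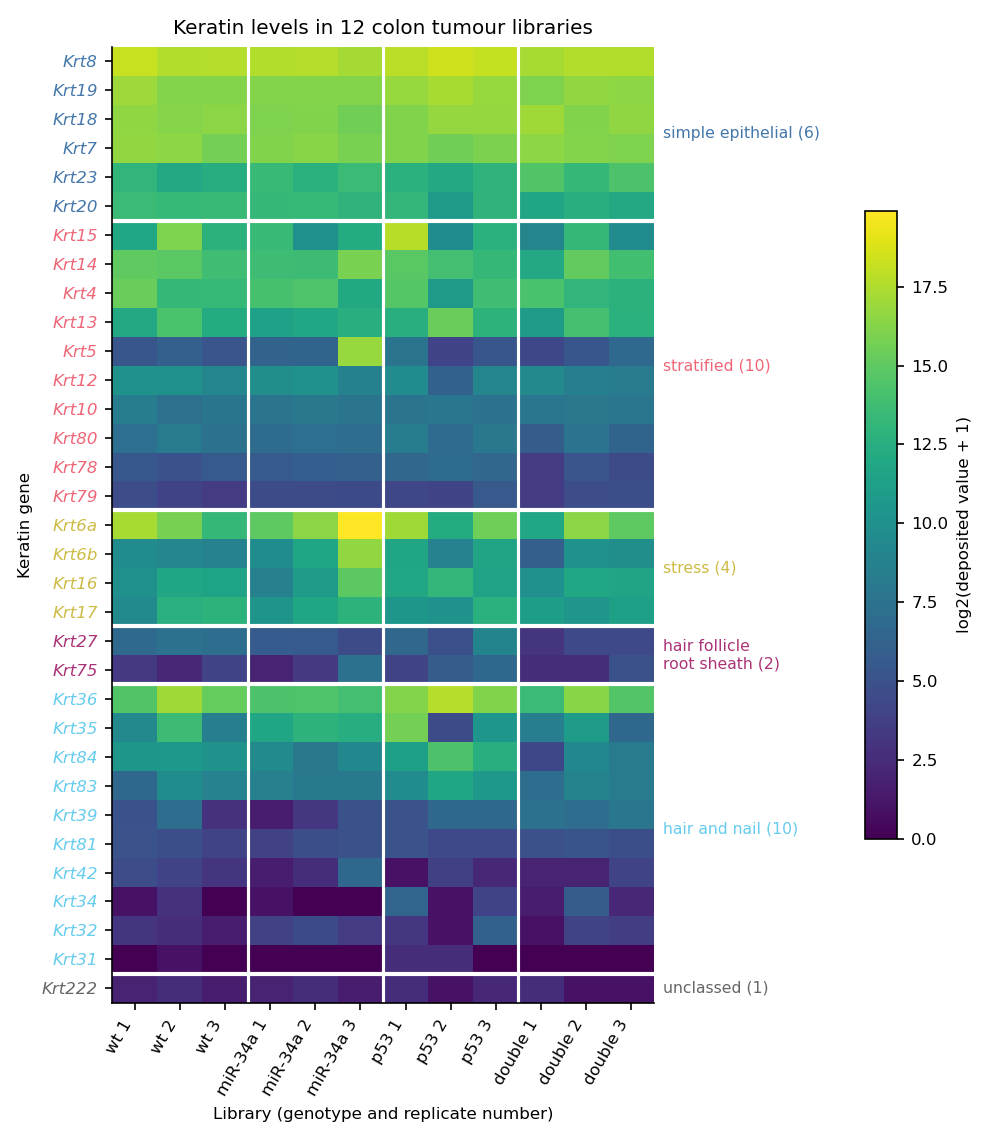
Heat map of log2(deposited value + 1) for the 33 keratin rows (vertical axis, grouped by class, with the number of rows in parentheses) in the 12 libraries (horizontal axis, named by the deficient gene and the replicate number). On this scale the upper 4 simple keratins look nearly even across libraries, while Krt5 stands out in 1 library and Krt15, Krt6a and Krt35 vary more.

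As a share of the keratin total per kb, simple keratins took 69.3% ± 13.5 in wt, 59.3% ± 31.2 in miR-34a deficient, 63.8% ± 15.5 in p53 deficient and 79.7% ± 14.0 in double deficient tumours (mean ± SD, n = 3). The genotypes thus overlapped widely. The share was lowest at 23.4% in miR-34a deficient 3, where the stress keratins took 62.7% and Krt6a alone 53.9%. It was 46.7% in p53 deficient 1, where Krt15, a keratin of basal and stem cells in stratified epithelia, was the highest keratin with 22.3%. In double deficient 1 it reached 91.2%, and there Krt18 with 33.0% was the highest keratin. Krt8 ranked first in the other 9 libraries. Hair and nail keratins took 1.63% to 24.0% of the total, with the highest share in p53 deficient 2 and the next, 20.6%, in wt 2.

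**Figure D2:**
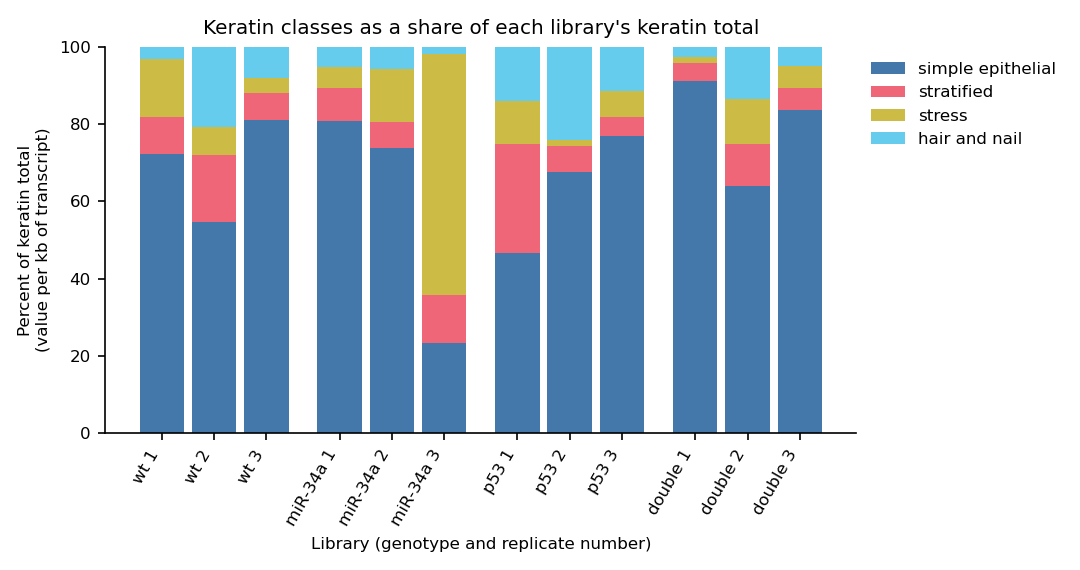
Stacked bars of the share of each library's keratin total (values per kb of transcript, in percent, vertical axis) taken by 4 keratin classes in the 12 libraries (horizontal axis). Stress keratins fill 62.7% of the bar of miR-34a deficient 3 and between 1.35% and 15% of the other 11.

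The ratio of type II to type I keratins was computed for simple keratins and for all keratins together. Among simple keratins alone it lay between 0.70 and 1.19 per kb in all 12 libraries, lowest in double deficient 1. Over all keratins it ran from 0.568 in wt 2 to 3.63 in miR-34a deficient 3, where Krt6a, a type II keratin, was the most abundant. Both ratios depend on the division by transcript length, that of the long Krt7 transcript included, and were not computed without it. They therefore do not show whether the types were balanced.

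The 4 abundant simple keratins varied less within genotypes than the abundant keratins of other classes. Their SDs of log2(value + 1), 0.27 to 0.34, were still above the median of all genes with a mean of at least 500 (0.24). Krt8 (chromosome 15, 101996698 to 102004482), the main type II keratin of the intestinal lining, was at 307115, 197904 and 214481 in the wt tumours. It had 203103, 210364 and 154634 in miR-34a deficient, 231335, 351588 and 287236 in p53 deficient and 162629, 199676 and 196428 in double deficient tumours. All p53 deficient libraries lay above all miR-34a deficient and all double deficient ones, and each genotype overlapped with wt. Double minus p53 deficient, Krt8 was at -0.62 ± 0.21 (log2 difference ± SE; limma adjusted p = 0.199), which did not pass. Of its 50-base stretches 26.9% also occur in the annotated Krt8-ps, so reads of both could be mixed.

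Krt18 (chromosome 15, 102028180 to 102032027), the type I partner of Krt8 and its neighbour, was at 97517, 79075 and 86720 in the wt tumours, while those deficient in miR-34a held 69085, 72798 and 48128. In p53 deficient tumours it was at 73239, 110284 and 110471, and in double deficient tumours at 133274, 70624 and 99211. The miR-34a deficient libraries were below all wt libraries, at a difference of -0.49 ± 0.25 that did not pass (adjusted p = 0.865).

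Krt19 (chromosome 11, 100140810 to 100148665), a type I keratin that can stand in for Krt18, was at 127731, 73799 and 73769 in the wt tumours. The values were 77385, 75773 and 74952 in miR-34a deficient, 113763, 161929 and 115264 in p53 deficient and 66108, 102798 and 93682 in double deficient tumours. The 3 miR-34a deficient values were close to each other, and all p53 deficient values were above them (0.76 ± 0.24, adjusted p = 0.095).

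Krt7, a type II keratin of ducts and simple glandular epithelia, was at 104028, 95436 and 55444 in the wt tumours, while those deficient in miR-34a held 72450, 85696 and 59424. The values were 73183, 50191 and 65396 in p53 deficient and 92217, 75234 and 69009 in double deficient tumours. Its groups overlapped in all 6 comparisons.

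Krt20 and Krt23 showed larger differences than the other simple keratins. Krt20 (chromosome 11, 99428403 to 99438150), the type I keratin of differentiated cells at the intestinal surface, was at 11823, 10468 and 11605 in the wt tumours, while those deficient in miR-34a held 9580, 10312 and 7766. It had 9431, 1741 and 8022 in p53 deficient and 3348, 6078 and 4138 in double deficient tumours. All double deficient libraries lay below all wt and miR-34a deficient ones. The difference from wt was -1.36 ± 0.50 in double deficient (adjusted p = 0.224) and -1.15 ± 0.50 in p53 deficient tumours (adjusted p = 0.302), and neither passed. The lowest value, 1741, came from p53 deficient 2, the library with low Hoxd13. Without that library the shared spread was smaller, and the double deficient difference from wt passed (-1.36, adjusted p = 0.016). Against miR-34a deficient tumours, where Krt20 was at -1.06 ± 0.50 (adjusted p = 0.291) over all libraries, it also passed without p53 deficient 2 (adjusted p = 0.0384).

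Markers of surface colonocytes were low beside Krt20 in double deficient tumours and mixed in p53 deficient 2. Of 10 fixed markers 6 were called lower in double deficient tumours against wt (Aqp8, Slc26a3, Car4, Guca2a, Tmigd1 and Mep1b), where 0.582% of all genes were. Their mean log2 level was 9.31 to 10.16 in wt, 8.39 to 9.54 in miR-34a deficient, 8.61 to 9.03 in p53 deficient and 5.74 to 7.72 in double deficient libraries. The marker sum was 45050 to 92278 in wt and 9941 to 48391 in double deficient libraries, where Aqp8 was at 0, 10 and 1. In p53 deficient 2, the library with the lowest Krt20, the sum was 90627, near the highest of wt, but Lypd8 alone held 70056 of it. The mean log2 level there was 9.03, below all wt libraries. Slc26a3 (1755), Mep1b (1373) and Muc3 (15841) had their highest values of all 12 libraries in p53 deficient 2. Aqp8, Car4, Tmigd1, Guca2a and Ceacam20 were at 52, 15, 8, 493 and 180 there, below all wt libraries. Their part in the Krt20 values was not tested.

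Krt23 (chromosome 11, 99477974 to 99493137), a type I keratin of glandular epithelia, went the other way. It was at 8989, 4024 and 5350 in the wt tumours, 11499, 6611 and 12395 in miR-34a deficient, 6758, 4099 and 8024 in p53 deficient and 22659, 9741 and 20786 in double deficient tumours. All double deficient libraries were above all wt and p53 deficient ones. The differences were 1.52 ± 0.40 against wt (adjusted p = 0.111) and 1.46 ± 0.40 against p53 deficient (adjusted p = 0.127). Neither passed, although with the replicate number as a block both did (adjusted p = 0.0117 and 0.0137).

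**Figure D3:**
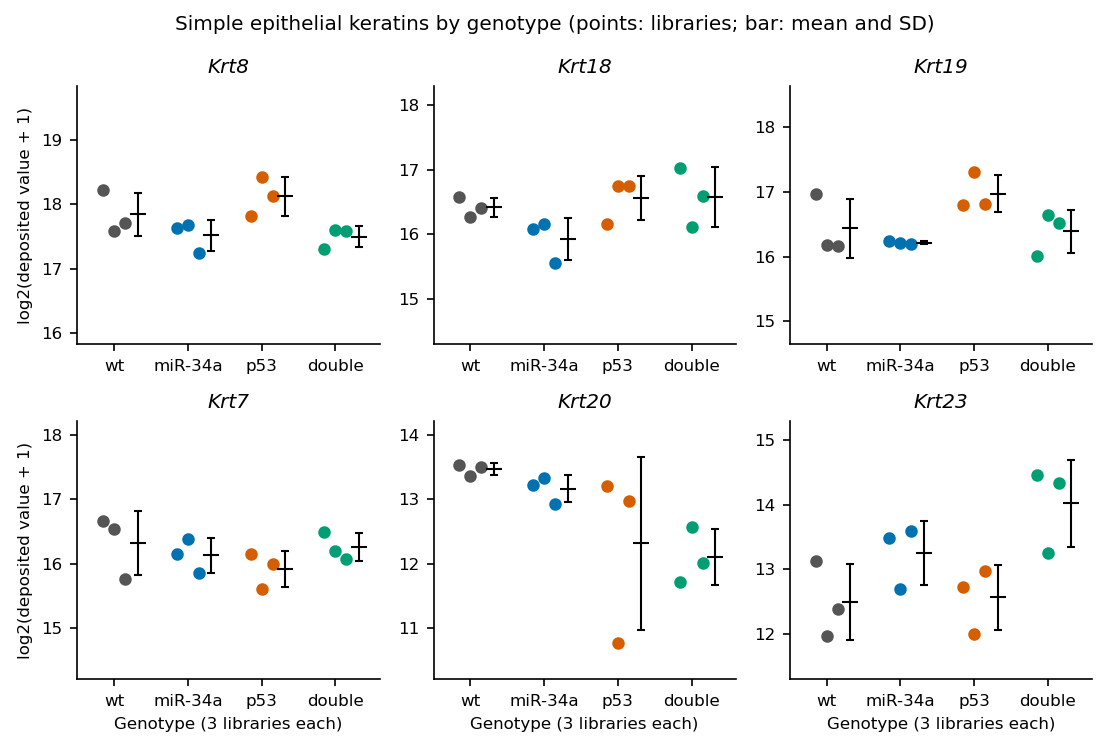
Values of the 6 simple keratins as log2(deposited value + 1) (vertical axis) by genotype (horizontal axis: wt, miR-34a deficient, p53 deficient, double deficient). Points are the 3 libraries of a genotype and the black bar is their mean and SD; each panel has its own axis range, and Krt20 and Krt23 are the panels in which double deficient libraries sit apart from wt.

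Upstream sequence is shown for Krt20, the simple keratin with the widest spread, and for Krt78, the keratin that passed a test. Each is the 250 bases before the RefSeq start (GRCm38.p6), at chr11:99438154-99438403 for Krt20 and at chr15:101954288-101954537 for Krt78, both on the minus strand, printed 5′ to 3′ with TATAAA in capitals.
Krt20: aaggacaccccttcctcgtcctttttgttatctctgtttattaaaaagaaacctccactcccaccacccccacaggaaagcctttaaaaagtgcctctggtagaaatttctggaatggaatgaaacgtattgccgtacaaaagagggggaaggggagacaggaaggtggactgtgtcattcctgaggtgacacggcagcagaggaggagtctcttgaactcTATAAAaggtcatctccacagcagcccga
Krt78: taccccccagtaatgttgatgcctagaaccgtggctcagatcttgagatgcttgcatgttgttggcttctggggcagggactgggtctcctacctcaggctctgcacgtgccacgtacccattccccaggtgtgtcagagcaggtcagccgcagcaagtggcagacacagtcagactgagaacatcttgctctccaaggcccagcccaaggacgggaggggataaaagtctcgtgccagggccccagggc
Of the 33 keratins 21 had such a window. All stress keratins, and Krt4, Krt15 and Krt19, were among those without one, so their motifs were not examined. TATAAA on either strand was in 8 of the 21 (Krt10, Krt12, Krt20, Krt27, Krt31, Krt32, Krt34 and Krt84) and in 12.4% of all 32851 windows. TGANTCA, the site known for AP-1 factors, was in 1 of 21 (Krt13) against 6.75% of all windows, and GGGCGG, known for Sp1, was in 2 of 21 (Krt7 and Krt75) against 32.7%. In the Krt20 window the TATAAA begins 29 bases before the start, and the Krt78 window holds none of the 3 motifs. No keratin window held more than 1 kind of motif, so different motifs did not overlap. Windows of Krt7, Krt13 and Krt32 held their motif at more than 1 place.

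The abundant stratified keratins were uneven between libraries of the same genotype, and the low ones were not all so. The SD within genotypes of log2(value + 1) was 1.06 to 3.22 for the 6 stratified keratins with a mean value of at least 500, with a median of 1.33. Krt5, which sets the upper end, has such a mean only through miR-34a deficient 3. The 5 with a median of at least 500 lay between 1.06 and 2.71. The other stratified keratins, Krt10 (0.29), Krt78 (0.51), Krt79 (0.63) and Krt80 (0.63), lay in the range of the simple ones. That range was 0.27 to 0.72 for the 6 simple keratins, with a median of 0.34. Stress keratins lay between 1.35 and 2.35 (4 genes), and hair and nail keratins between 1.03 and 3.32 (4 genes), or 1.06 and 3.32 without Krt83, whose median is under 500. The median of all 9791 genes at that level was 0.24. The 4 most even simple keratins were at the percentiles 59.5 to 73.1 among these genes, and the 14 keratins of the other 3 classes with such a mean at 97.1 or above.

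**Figure D4:**
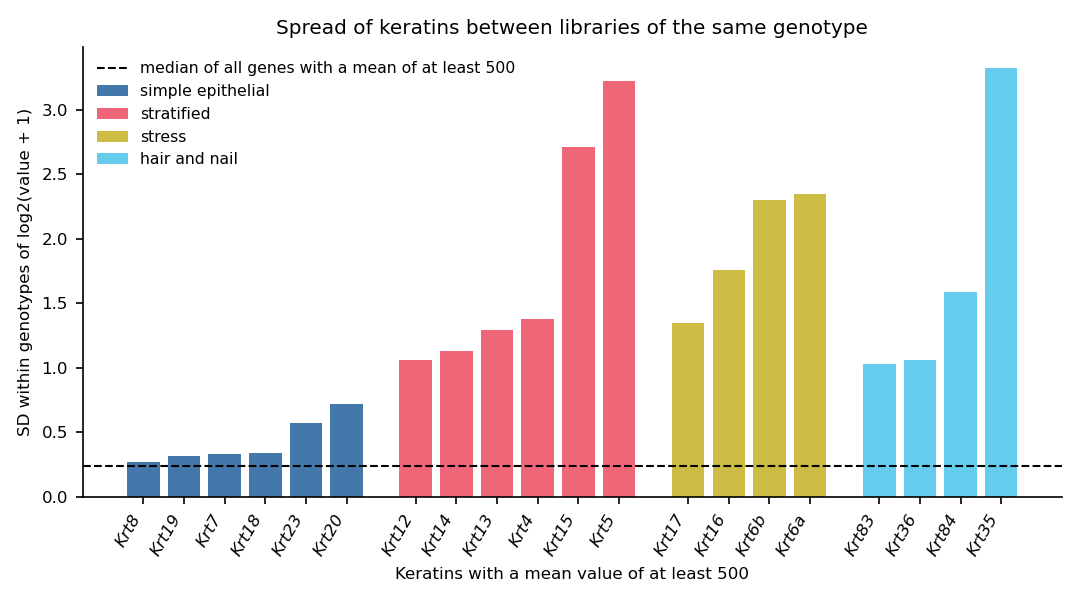
SD within genotypes of log2(value + 1) (vertical axis) for the 20 keratins with a mean value of at least 500 (horizontal axis), coloured by class; the dashed line is the median of all genes at that level (0.24). Krt8 is lowest at 0.27, while Krt5 and Krt35 exceed 3.

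Krt5 (chromosome 15, 101707070 to 101712898), the type II keratin of basal cells, was nearly confined to 1 library. Its value was 115764 in miR-34a deficient 3 and 15 to 200 in the other 11. Wt libraries had 40, 67 and 36, the other miR-34a deficient libraries 79 and 86, p53 deficient libraries 200, 15 and 40, and double deficient libraries 19, 40 and 113. All miR-34a deficient values were above all wt values, at a difference of 4.31 ± 2.22 (adjusted p = 0.868). Trp63, the gene of the basal cell factor p63, was at 1326 in the same library and at 14 to 81 elsewhere. There the cornified envelope gene Ivl was at 2114 (11 to 1202 elsewhere) and the basal water channel gene Aqp3 at 5993 (32 to 178 elsewhere). Not all squamous markers were high in that library. Serpinb5 (6026) had its lowest value there, and Tgm1 (1691) and Tgm3 (165) lay below all wt libraries. The marker sum over all 16 genes was 49741 in that library and 30637 to 48816 in the others, and Cnfn was at 0 in 6 of these. Their part in the keratin values of that library was not tested.

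Krt14 (chromosome 11, 100203162 to 100207548), the type I partner of Krt5, was abundant everywhere. It was at 34248, 28697 and 14261 in the wt tumours, 13747, 12999 and 60691 in miR-34a deficient, 29225, 16062 and 9775 in p53 deficient and 4209, 35957 and 15016 in double deficient tumours. Its highest value was again in miR-34a deficient 3, but 11 libraries held Krt14 at 4209 or more with Krt5 at 200 or less. Of the 50-base stretches in its annotated transcripts 13.9% also occur in another gene, mostly Krt16, so part of these values is uncertain.

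Krt15 (chromosome 11, 100131758 to 100135928) peaked elsewhere. Its values were 3946, 68944 and 6901 in wt, 10667, 1018 and 4781 in miR-34a deficient, 217763, 833 and 6590 in p53 deficient and 538, 9822 and 780 in double deficient tumours. The peaks in p53 deficient 1 and wt 2 were in libraries with Krt5 at 200 and 67. The genotypes overlapped in all 6 comparisons.

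Krt4, a type II keratin of moist squamous epithelia, was at 41856, 9807 and 10346 in the wt tumours, 17724, 22038 and 4408 in miR-34a deficient, 25066, 1758 and 13924 in p53 deficient and 18913, 8710 and 7159 in double deficient tumours. Its partner Krt13 had 4222, 19786 and 4879 in wt, 2705, 3749 and 6053 in miR-34a deficient, 5791, 42534 and 7492 in p53 deficient and 1943, 16405 and 6564 in double deficient tumours. Krt13 was highest in p53 deficient 2, where Krt4 was lowest. No genotype was separated from another in either gene.

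Krt10, the type I keratin of the cornifying upper skin, was low and even, at 164 to 336 in wt and 174 to 248 in the other 9 libraries. Krt12, known from the cornea, was at 1137, 1021 and 565 in the wt tumours, 903, 1126 and 418 in miR-34a deficient, 782, 73 and 519 in p53 deficient and 652, 390 and 296 in double deficient tumours. The lowest Krt12 value was that of p53 deficient 2. Krt79 and Krt80 were at 10 to 46 and 58 to 348. Krt1, the partner of Krt10, was not analysed here.

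Krt6a and Krt6b had the widest spread among the stress keratins, with SDs within genotypes of 2.35 and 2.30. Krt6a (chromosome 15, 101689910 to 101694307) was at 159143, 56759 and 9885 in the wt tumours, while those deficient in miR-34a held 31296, 90615 and 977162. It had 135708, 4819 and 46030 in p53 deficient and 3666, 91230 and 31420 in double deficient tumours. The libraries of every genotype overlapped with those of the others. Krt6b (chromosome 15, 101676023 to 101680287) was at 773, 577 and 459 in the wt tumours, 813, 3268 and 104171 in miR-34a deficient, 3239, 454 and 3141 in p53 deficient and 64, 1181 and 898 in double deficient tumours. The miR-34a deficient libraries all lay above wt, at 3.47 ± 1.58 (adjusted p = 0.818).

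Krt6a and Krt6b can share reads. Their coding sequences differ at 37 of 1659 aligned bases (97.8% identity in GENCODE M21) and hold an identical run of 280 bases, and 44.5% of the 50-base stretches of Krt6b transcripts also occur in Krt6a. The window of 90 coding bases with the most mismatches (bases 787 to 876 from the start codon, minus strand of GRCm38 chromosome 15) shows where reads could be told apart. Capitals mark the 12 mismatches.
Krt6a: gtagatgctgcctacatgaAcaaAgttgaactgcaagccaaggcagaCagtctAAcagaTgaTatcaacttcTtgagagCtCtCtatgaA
Krt6b: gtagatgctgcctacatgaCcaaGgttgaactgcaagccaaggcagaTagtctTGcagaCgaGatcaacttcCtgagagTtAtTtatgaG
Krt6b was at 0.486% of the Krt6a value in wt 1 and at 10.7% in miR-34a deficient 3, with 1.02% to 9.42% in the other 10 libraries. How much of the Krt6b value comes from Krt6a was not tested.

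Krt16 (chromosome 11, 100246091 to 100248902), a type I stress keratin, was at 29787 in miR-34a deficient 3. The other values were 998, 3371 and 2951 in wt, 411 and 2023 in the other miR-34a deficient libraries, 3900, 9122 and 2857 in p53 deficient and 1068, 3627 and 3146 in double deficient tumours. Of its 50-base stretches 37.6% occur in another annotated gene, most of all in Gm11597 (25.2%). Krt17, a type I stress keratin, was at 704, 6209 and 7406 in the wt tumours, 1282, 3457 and 7536 in miR-34a deficient, 1508, 1180 and 6719 in p53 deficient and 2284, 1350 and 2596 in double deficient tumours. It was as high in wt 3 as in miR-34a deficient 3. Without miR-34a deficient 3, all 4 stress keratins still failed the test in every comparison.

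The keratin pairs examined seldom varied together over the 12 libraries. Of 10 pairs fixed from textbook pairing or co-expression, 2 had a Benjamini-Hochberg adjusted permutation p under 0.05 for Pearson's r of log2(value + 1). Krt8 and Krt19 varied together (r = 0.87, adjusted p = 0.0005; Spearman's rho 0.73, raw p = 0.00865, adjusted p = 0.0685). The r was 0.70 without the 2 libraries farthest from the Krt8 median, 0.83 for deviations from genotype means and 0.89 in the 10 libraries of the main run code. Krt8 and Krt18, the textbook pair, had r = 0.44 (adjusted p = 0.392; rho 0.30, adjusted p = 0.594), and 0.22 to 0.81 when each library was left out in turn. The highest of these, 0.81, was reached without double deficient 1, the library with the highest Krt18 and a low Krt8, and there the pair passed.

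Krt4 and Krt13 went in opposite directions, with r = -0.71 (permutation adjusted p = 0.0493) and rho = -0.70 (adjusted p = 0.0685). This rested on few libraries: r was -0.47 (permutation p = 0.167) without p53 deficient 2 and wt 1, the libraries farthest from the Krt4 median. The pair passed in 3 of the 12 sets that left out a library, those without wt 2, miR-34a deficient 3 or double deficient 1. Within genotypes r was -0.78 and in the 10 libraries of the main run code -0.72. Krt5 and Krt14 had r = 0.60 (permutation adjusted p = 0.207), 0.67 for deviations from genotype means, where the pair passed, and 0.27 without miR-34a deficient 3 and p53 deficient 1. The deviations were permuted over all 12 libraries although they are centred within genotypes, so p-values for them can be too small. Krt6a with Krt16 and with Krt17 had r = 0.36 and 0.12, and both turned negative without miR-34a deficient 3 and double deficient 1 (-0.36 and -0.22). The remaining pairs, Krt8 with Krt20, Krt7 with Krt19, Krt5 with Krt15 and Krt14 with Krt17, had r between -0.26 and 0.15. Krt14 and Krt17 are both type I, so this pair is not one of filament partners. The permutation tests were two-sided with 100000 resamples, and the 12 libraries are of 4 genotypes.

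Among hair and nail keratins 4 of 10 had a mean value of at least 500, and Krt36 reached the level of simple keratins. Krt36 (chromosome 11, 100102007 to 100105626), a type I keratin, was at 23095, 133470 and 38254 in the wt tumours, while those deficient in miR-34a held 21099, 21926 and 15687. It had 77636, 205628 and 72294 in p53 deficient and 12180, 83765 and 24942 in double deficient tumours. All miR-34a deficient libraries lay below all wt and p53 deficient ones. Krt36 was 2.44 ± 0.73 higher on the log2 scale in p53 than in miR-34a deficient tumours (adjusted p = 0.0841), which did not pass. With the replicate number as a block it passed (adjusted p = 0.0272).

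Krt84 (chromosome 15, 101525026 to 101532820), a type II keratin, separated the genotypes most widely. Its values were 1516, 1557 and 1126 in wt, 750, 247 and 635 in miR-34a deficient, 2370, 20787 and 5943 in p53 deficient and 19, 609 and 310 in double deficient tumours. All p53 deficient libraries were above, and all miR-34a and double deficient libraries below, all wt libraries. Double minus p53 deficient, Krt84 was at -5.41 ± 1.09 (adjusted p = 0.0567), and p53 minus miR-34a deficient at 3.76 ± 1.09 (adjusted p = 0.0793). Neither passed. Without p53 deficient 1 both did, at -6.16 and 4.50 (adjusted p = 0.0355 and 0.0496). Krt84 shared no 50-base stretch with another annotated gene.

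Krt83 (chromosome 15, 101485130 to 101491512), a type II hair keratin, was at 107, 827 and 451 in the wt tumours, 410, 258 and 260 in miR-34a deficient, 765, 3269 and 1587 in p53 deficient and 148, 467 and 297 in double deficient tumours. The p53 deficient libraries lay above all miR-34a and double deficient ones. The differences were 2.39 ± 0.72 (adjusted p = 0.0849) and, for double minus p53 deficient, -2.53 ± 0.72 (adjusted p = 0.14). Of its 50-base stretches 22.1% occur in another gene, most of all in Krt86 (18.8%). Krt35, a type I hair keratin, had the widest spread, with values of 646, 12910 and 376 in wt, 3356, 7518 and 5342 in miR-34a deficient, 54957, 22 and 1371 in p53 deficient and 355, 2055 and 104 in double deficient tumours. Its lowest value was that of p53 deficient 2, where Krt36, Krt84 and Krt83 were highest.

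The low hair keratins were Krt31, Krt32, Krt34, Krt39, Krt42 and Krt81, none above 219 in any library. Krt39 was at 172, 134 and 219 in double deficient and at 2, 8 and 30 in miR-34a deficient tumours (4.19 ± 1.02, adjusted p = 0.0759). It was at 31, 140 and 6 in wt and 34, 106 and 98 in p53 deficient tumours. Of the root sheath keratins, Krt75 was highest in miR-34a deficient 3 at 185 and at 3 to 104 elsewhere. Krt27 was at 109, 184 and 144 in wt, 55, 50 and 23 in miR-34a deficient, 93, 28 and 497 in p53 deficient and 7, 20 and 20 in double deficient tumours. All double deficient libraries lay below all others for Krt27, and the difference from wt was -3.24 ± 0.83 (adjusted p = 0.106).

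**Figure D5:**
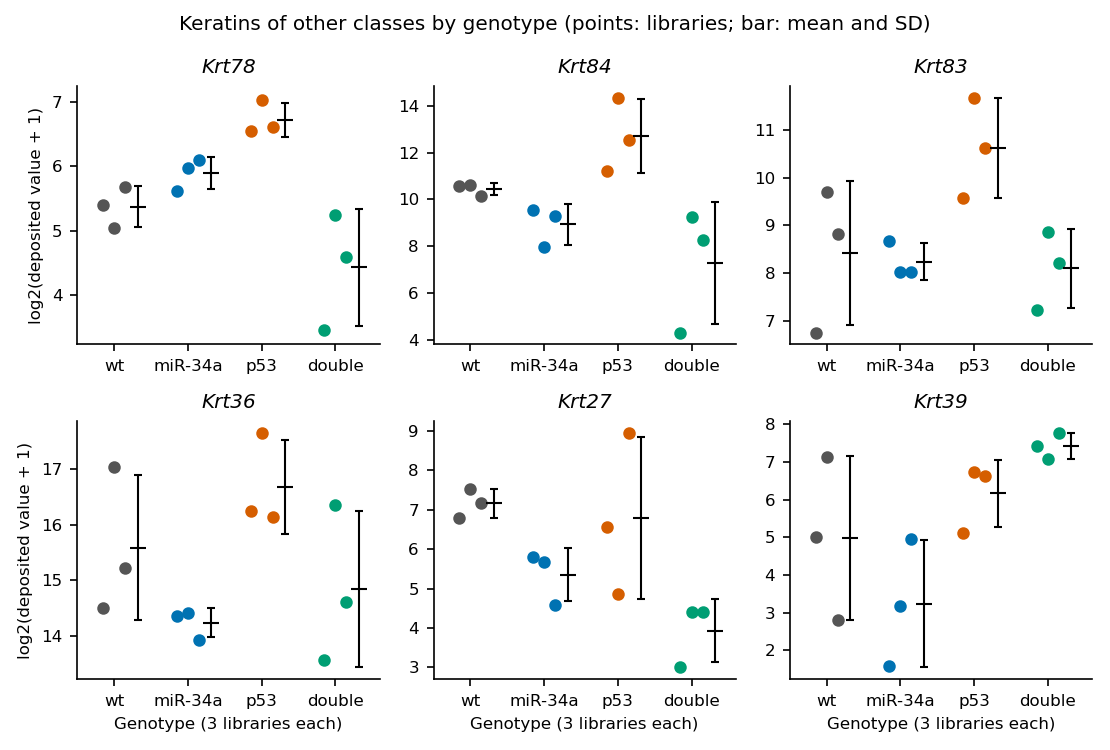
Values of 6 keratins outside the simple class as log2(deposited value + 1) (vertical axis) by genotype (horizontal axis: wt, miR-34a deficient, p53 deficient, double deficient). Points are the 3 libraries of a genotype and the black bar is their mean and SD; the p53 deficient points lie above the double deficient ones for Krt78, Krt84 and Krt83, and each panel has its own axis range.

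The first comparison sets the loss of miR-34a alone against wt. No keratin passed limma's test (0 of 32, against 0.0375% of all 21322 genes), and 1 had an unadjusted p under 0.05 (Krt6b; 6.09% of all genes). The groups did not overlap for 8 keratins, against 10.1% of all genes: Krt5, Krt6b and Krt32 were higher and Krt18, Krt20, Krt27, Krt36 and Krt84 lower in all miR-34a deficient libraries. The median log2 difference over the 32 keratins was -0.19, and 0.03 over all genes. The stress keratins had a median of 1.05 and the simple ones of -0.26. Without miR-34a deficient 3, which held 115764 of Krt5 and 104171 of Krt6b, the stress median was -0.17, with Krt6a at 0.25, Krt6b at 1.47, Krt16 at -1.24 and Krt17 at -0.60. The median of the simple keratins was then -0.19, that of the 10 stratified ones 0.10 in place of -0.17, and that of 9 hair and nail keratins -0.77 in place of -0.29. Krt5 was at 0.83 without that library.

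For p53 deficient tumours against wt, no keratin of 32 passed (0.0234% of all genes), and 4 had an unadjusted p under 0.05 (15.3% of all genes). These were Krt78 (1.35 ± 0.42, adjusted p = 0.179), Krt83 (2.21 ± 0.72, adjusted p = 0.192), Krt19 (0.54 ± 0.24, adjusted p = 0.309) and Krt20. The groups did not overlap for 4 keratins, against 16.2% of all genes, with Krt75, Krt78 and Krt84 higher and Krt20 lower. The median over the 32 was 0.12, against -0.04 over all genes, and that of 9 hair and nail keratins was 1.10.

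In double deficient tumours against wt, 0 of 32 keratins passed limma's test, where 0.802% of all genes did. An unadjusted p under 0.05 was reached by 7 (15.3% of all genes): Krt23 and Krt39 at positive differences and Krt27, Krt84, Krt20, Krt80 and Krt78 at negative ones. The groups did not overlap for 4 keratins (19.8% of all genes), Krt23 above and Krt20, Krt27 and Krt84 below wt. Of the 32, 23 lay below 0, with a median of -0.43 against 0.02 over all genes. Of 10 stratified keratins 9 lay below 0, with a median of -0.75. Without p53 deficient 2 in the shared fit, Krt20 and Krt27 passed, and with only these 2 genotypes in the fit Krt27 did (adjusted p = 0.0462). The shares of all genes that passed in these 2 settings were 1.22% and 0.48%.

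Double deficient against p53 deficient tumours, which addresses the loss of miR-34a where p53 is lost too, gave the only keratin that passed. Krt78 (chromosome 15, 101946001 to 101954287), a type II keratin of stratified epithelia whose upstream sequence is printed above, fell by 2.29 ± 0.42 on the log2 scale (adjusted p = 0.0396). Its values were 92, 129 and 96 in p53 deficient and 10, 37 and 23 in double deficient tumours, 41, 32 and 50 in wt and 48, 62 and 67 in miR-34a deficient tumours. All p53 deficient libraries were above, and all double deficient libraries below, all miR-34a deficient ones. These are low values, and no 50-base stretch of Krt78 was shared with another annotated gene.

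The call was fragile. It held under 10 of 28 alternatives, with adjusted p between 0.0215 and 0.535 and log2 differences between -2.70 and -1.80. Every p53 deficient library also lay above every double deficient library in the Y-linked level. With that level as a covariate Krt78 was at -1.97 (adjusted p = 0.535). Sex-linked RNA and genotype cannot be told apart well in this comparison.

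In the same comparison 1 of 32 keratins was called (0.605% of all genes), and 9 had an unadjusted p under 0.05 (15.1% of all genes). The groups did not overlap for 8 keratins, against 19.6% of all genes: Krt23 and Krt39 were higher and Krt8, Krt19, Krt27, Krt78, Krt83 and Krt84 lower in double deficient tumours. The median over the 32 was -0.53, with 0.05 over all genes. This comparison shares its double deficient libraries with the other comparisons of that genotype.

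Against miR-34a deficient tumours, double deficient ones had no keratin that passed (0 of 32, against 0.905% of all genes) and 4 with an unadjusted p under 0.05 (18% of all genes). Besides Krt39 these were Krt78 (-1.46 ± 0.42, adjusted p = 0.113), Krt18 (0.65 ± 0.25, adjusted p = 0.2) and Krt6b (-3.99 ± 1.58, adjusted p = 0.212). The Krt6b groups overlapped. The groups did not overlap for 6 keratins, against 27.3% of all genes. In p53 against miR-34a deficient tumours 0 of 32 passed, where 3.39% of all genes did, and 8 had an unadjusted p under 0.05 (23% of all genes). The Y-linked level was 3.73 to 6.98 in p53 deficient and 0 to 5.28 in miR-34a deficient libraries. With that level as a covariate 0.127% of all genes passed, and 0.192% to 5.94% did when each library was left out. The groups did not overlap for 8 keratins (27.7% of all genes), and all 8 were higher in p53 deficient tumours, a direction without overlap that 11.1% of all genes had: Krt8, Krt18, Krt19, Krt36, Krt39, Krt78, Krt83 and Krt84. Of 9 hair and nail keratins 5 had an unadjusted p under 0.05, with a median of 2.39 where all genes had -0.10. Markers of other cells differed in the same comparison. All 9 pan-epithelial markers lay above 0 (median 0.25), 3 of them without overlap. All 5 fibroblast markers lay below 0 (median -0.88) and so did all 4 immune markers tested (median -0.46), with 2 of each without overlap, where 16.6% of all genes were lower in that way. None of these markers passed, and their part in the keratin values was not tested.

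The interaction asks whether the effect of p53 loss depends on miR-34a. No keratin passed (0 of 32, against 0.0234% of all genes), and 4 had an unadjusted p under 0.05 (7.89% of all genes), which were Krt78, Krt84, Krt6b and Krt83. Krt78 was higher with p53 loss in miR-34a proficient tumours and lower with p53 loss in miR-34a deficient ones, without overlap in either case. Its interaction was -2.81 ± 0.60 (adjusted p = 0.277) and did not pass. A test of any difference between the 4 genotypes called 0 of 32 keratins (1.91% of all genes), with 9 at an unadjusted p under 0.05 (22.1% of all genes). The lowest adjusted p was that of Krt78 (0.0599).

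Genes whose products anchor or bind keratin filaments gave no call. Of 27 fixed partner genes (desmosomal and hemidesmosomal proteins, plakins and filament-binding proteins) 23 were in the table. None passed in any of the 6 comparisons or the interaction, where 0.0234% to 3.39% of all genes did. Between 1 and 7 of the 23 had an unadjusted p under 0.05, where 6.09% to 23% of all genes did, and the medians lay between -0.17 and 0.15. Dsp (desmoplakin), which ties keratin filaments to desmosomes, was at 62402 to 187211. The basal desmoglein gene Dsg3 varied from 110 in wt 3 to 7415 in wt 2. Among 11 filament genes outside the keratin family Vim (vimentin), the filament gene of mesenchymal cells, was the only one that passed in a comparison. It fell by 1.69 ± 0.29 in p53 against miR-34a deficient tumours (adjusted p = 0.0196), with values of 2278, 1852 and 2199 against 7757, 6330 and 6409. Vim also passed the test of any difference between genotypes (adjusted p = 0.0468).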

How the data were processed

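RNA of 12 colon tumour libraries was analysed from one table of 21792 genes. The values are a score: normalized expression values that the authors deposited as whole numbers, and for them no aligner, counter or normalization method is named in the labels or the header. Per the submitters' processing notes the genome build was mm10. Depth is unknown, so no counting interval is given. Groups came from the labels. log2(value + 1) was fitted with limma 3.58.1 (R 4.3.3) over all 12 libraries with 4 genotype means and a mean-variance trend. Genes with a mean of at least 1 (21322) were tested, with Benjamini-Hochberg adjustment over all of them and a threshold of 0.05. Differences are on the log2(value + 1) scale, which understates those of low genes. Within genotypes, the 8th and last direction of spread between libraries was nearly absent. Its singular value, a measure of spread, was 0.179, where the 7th had 32.2 (9791 genes with a mean of at least 500). The fit still counts 8 residual degrees of freedom, so SDs and p-values can be too small. With that direction as a covariate Krt78 in double against p53 deficient tumours was at -2.29 (limma adjusted p = 0.0902). The script was tested on simulated data with independent noise in all libraries. That test does not check p-values where a direction of spread is nearly absent.

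Keratin pairs were tested with permutation tests (scipy 1.17.1, numpy 2.4.6, pandas 2.3.3). Gene models came from GENCODE M21 and upstream sequences from RefSeq (GRCm38.p6). The members and lists were chosen with earlier results of these data known. Values were given for all simple and stress keratins, for Krt4, Krt5, Krt10, Krt13, Krt14 and Krt15, for any keratin that passed a test and for any with a mean of at least 500; Krt27 and Krt39 were added after their values were seen. Alternatives covered the pseudocount, filter, trend, rescaling, libraries, covariates and the replicate block.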

Additional observations from a re-analysis of the deposited data

How the results depend on the processing

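Depth is unknown, and 3 libraries per genotype limit the precision. The counts of keratins that passed were 0 under all alternatives for miR-34a deficient against wt, p53 deficient against wt and the interaction. In these, 0.00469% to 0.413% of all genes passed. Without division by transcript length the mean share of simple keratins moved by less than its SD in each genotype. Rescaling whole libraries cannot change such a share. Of 1031 alternative values of 37 keratin differences, all chosen for an unadjusted p under 0.05, 0 reversed. This says little about stability. Changes of trend, prior or filter, and leaving out a library of a genotype not compared, cannot alter a difference. Of the 37, 9 passed only in an alternative. For double deficient against wt (0 passed), 1 did with only the groups compared, 2 without both miR-34a deficient 3 and p53 deficient 2 (chosen after seeing the data), and 0 to 2 when leaving out each library. The shares of all genes were 0.48%, 1.28% and 0.136% to 1.22% in these settings. For double against p53 deficient (1 passed), 2 did with pseudocount 10 (0.61% of all genes). There 0 did with no filter, no trend, only the groups compared, a covariate for the run code or for Y-linked RNA, without the 2 libraries whose run code differs, without both named libraries, or with a covariate for a direction nearly absent from the data, and 0 to 2 when leaving out each library. In the named settings with 0 calls 0.0328% to 0.563% of all genes passed, and 0.127% to 1.38% when leaving out each library. Leaving out each library gave 0 to 1 for double against miR-34a deficient, 0 to 2 for p53 against miR-34a deficient and 0 to 1 for any difference. The shares of all genes there were 0.108% to 1.15%, 0.192% to 5.94% and 0.234% to 3.11%. The test of any difference gave 1 with pseudocount 10 (1.84% of all genes) and 1 without both named libraries (0.68%). The number of keratin pairs that passed (2) was 1 to 3 when leaving out each library and 1 in the main run code (chosen after seeing the data). Quantile normalization shifted the median of all genes by 0.13 in p53 against miR-34a deficient tumours. The cause of these changes was not tested.

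Whether replicate numbers pair the libraries is not known. Of 18 same-numbered pairs from different genotypes, 6 correlated above 0.1 (-0.21 to 0.50) in deviations from genotype means. Pairs with different numbers were not set beside them, so these values cannot decide it. With the replicate block 1 keratin passed for double deficient against wt (0.478% of all genes) and 2 for double against p53 deficient (0.661%). There 1 passed for p53 against miR-34a deficient (2.98% of all genes) and 1 for any difference (1.21%).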
